A study of Mus musculus with 20 samples.

Results

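H3K4me3 peaks of Lin- bone marrow cells were compared between WT mice and mice that lack both p300 and Tet2 (Ep300Δ/ΔTet2-/-). The 26289 peaks of the WT list and the 27268 peaks of the Ep300Δ/ΔTet2-/- list merged into 28935 regions, which are the regions described here. The 12 peak lists of the series hold 591292 peaks in all, of 3 marks. A merged region was called lost when no Ep300Δ/ΔTet2-/- peak overlapped it by at least 1 bp, gained when no WT peak did, and retained otherwise. By this rule 3817 regions were lost, 3420 were gained, and 21698 were retained. With a q cutoff on every list the balance shifted toward loss. At a −log10 q of 5 or more, 4212 were lost and 1708 gained, and at 10 or more, 3353 and 1018. Lists of equal size gave 3740 and 2551. The balance was reversed, at 15 lost and 25 gained, where only peaks above the median fold enrichment of their list could change. Whether a q cutoff is equally strict in each list was not tested. Each region was then looked up in the lists of the single knockouts, Ep300Δ/Δ and Tet2-/-.

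Lin- cells are what remains of bone marrow once mature blood lineages have been depleted by their surface markers, here at a stated purity above 80%, from mice on a C57BL/6 background. WT mice were Ep300fl/fl, that is, they carried Ep300 alleles flanked by loxP sites but no Cre. Ep300Δ/Δ mice were Mx1-Cre;Ep300fl/fl, Tet2-/- mice were Ep300fl/fl;Tet2-/-, and Ep300Δ/ΔTet2-/- mice were Mx1-Cre;Ep300fl/fl;Tet2-/-. All genotypes received poly(I:C), 10 μg per g of body weight in 3 injections that began at 6 to 8 weeks of age, and the methods place experiments 2 weeks after poly(I:C) unless another time is given. Mx1-Cre is switched on by interferon and also acts outside blood cells, and Tet2 was absent from the germline on, so the knockouts differ in how long each protein had been missing. Each immunoprecipitation used 5 μg of chromatin, with fly chromatin (10 ng) spiked in; no source used here states that the peak lists were scaled by it.

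The files hold 1 H3K4me3 library per genotype, so the spread between mice is not known and genotypes were compared without a test. Brackets after a share hold its 95% interval (exact, Clopper-Pearson), and this takes in counting error alone. Peak lists do not give sequencing depth, and a peak that is not called is not a mark that is absent. In such bulk chromatin, fewer cells of a type and less mark per cell cannot be told apart. The Ep300Δ/Δ library stood apart on the Y chromosome: the promoters of Kdm5d, Eif2s3y, Uty, and Ddx3y had peaks in the other 3 lists and none in the Ep300Δ/Δ list, which held 1 Y peak against 7, 7, and 6 in WT, Tet2-/-, and Ep300Δ/ΔTet2-/-. The Xist promoter had a peak in all 4 lists. The lost and gained totals and their shares absent from, or present in, a single knockout are also given without the sex chromosomes. Other counts that use the Ep300Δ/Δ list include them.

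Trimethylation of lysine 4 on histone H3 is laid down by SET1 and MLL complexes at transcription start sites. CpG-rich promoters carry broad, strong H3K4me3 even at low transcription, because CXXC domain proteins recruit these complexes to unmethylated CpG. Weaker H3K4me3 is also found at promoters poor in CpG, which are often specific to a cell type, and at strong enhancers, where H3K4me1 prevails. p300 acetylates H3K27 at enhancers and promoters, and TET2 oxidizes 5-methylcytosine in DNA, a step toward demethylation.

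The reference sequence at a few of these regions is shown because CpG content was among the features that set lost and gained regions apart from retained ones. Each is the plus strand of GRCm38.p6, 5′ to 3′, as near to the peak summit as a stretch without annotated UTR allowed, with every CpG in capitals. The first 5 lie in lost regions: in an intron of Ylpm1 (chr12:85003495-85003794, of which 93% is soft-masked as repeat), in an intron of Mphosph9 (chr5:124317543-124317842), in the first part of Nlrp12 by its start (chr7:3249230-3249529), in the Blnk gene by its start (chr19:40993757-40994056), and over a coding exon of Myb (chr10:21146188-21146487).

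Ylpm1 intron, lost: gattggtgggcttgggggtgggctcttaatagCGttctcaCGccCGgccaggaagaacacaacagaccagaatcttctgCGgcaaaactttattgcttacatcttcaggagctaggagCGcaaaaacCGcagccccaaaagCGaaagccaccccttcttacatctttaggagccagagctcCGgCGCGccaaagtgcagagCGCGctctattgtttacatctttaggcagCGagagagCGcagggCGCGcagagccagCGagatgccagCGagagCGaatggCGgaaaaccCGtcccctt
Mphosph9 intron, lost: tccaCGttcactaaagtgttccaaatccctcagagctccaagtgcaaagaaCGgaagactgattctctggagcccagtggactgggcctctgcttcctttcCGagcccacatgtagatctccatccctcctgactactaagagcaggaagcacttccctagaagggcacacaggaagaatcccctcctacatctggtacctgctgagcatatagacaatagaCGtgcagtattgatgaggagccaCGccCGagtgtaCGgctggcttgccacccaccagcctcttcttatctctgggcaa
Nlrp12 promoter, lost: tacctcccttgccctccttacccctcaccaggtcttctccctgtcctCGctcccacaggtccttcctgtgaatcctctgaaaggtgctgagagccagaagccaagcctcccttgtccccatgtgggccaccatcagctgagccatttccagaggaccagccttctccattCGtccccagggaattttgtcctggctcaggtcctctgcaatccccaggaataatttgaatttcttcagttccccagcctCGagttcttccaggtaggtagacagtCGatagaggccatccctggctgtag
Blnk promoter, lost: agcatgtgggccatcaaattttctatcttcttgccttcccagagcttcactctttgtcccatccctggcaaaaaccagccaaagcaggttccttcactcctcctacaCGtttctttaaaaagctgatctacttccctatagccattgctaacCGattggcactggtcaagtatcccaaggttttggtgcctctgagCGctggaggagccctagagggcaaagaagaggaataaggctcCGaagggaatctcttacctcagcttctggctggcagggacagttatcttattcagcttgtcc
Myb intragenic, lost: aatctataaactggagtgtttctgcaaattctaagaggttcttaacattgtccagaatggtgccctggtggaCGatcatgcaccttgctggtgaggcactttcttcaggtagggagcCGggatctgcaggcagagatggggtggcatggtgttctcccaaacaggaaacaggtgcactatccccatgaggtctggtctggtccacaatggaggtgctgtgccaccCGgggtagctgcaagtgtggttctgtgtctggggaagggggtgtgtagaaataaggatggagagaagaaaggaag

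They hold 21, 7, 4, 4, and 3 CpG in 300 bases. The next 4 are the retained Myb promoter (chr10:21159074-21159373) and 3 gained regions: beside the Tmem267 start (chr13:119487881-119488030), in an intron of Tnrc6c (chr11:117663385-117663684), and in the intergenic region nearest the annotated miRNA gene Gm23416 (chr15:87074305-87074604).

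Myb promoter, retained: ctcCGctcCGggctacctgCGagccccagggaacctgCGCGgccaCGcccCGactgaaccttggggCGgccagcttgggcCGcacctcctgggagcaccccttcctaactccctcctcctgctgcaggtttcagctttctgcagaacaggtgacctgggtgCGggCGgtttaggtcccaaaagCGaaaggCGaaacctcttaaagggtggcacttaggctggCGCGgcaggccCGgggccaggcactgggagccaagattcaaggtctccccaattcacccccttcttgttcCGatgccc
Tmem267 promoter, gained: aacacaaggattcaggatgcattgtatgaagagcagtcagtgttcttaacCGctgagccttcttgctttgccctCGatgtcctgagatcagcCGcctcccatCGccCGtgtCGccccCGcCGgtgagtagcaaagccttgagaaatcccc
Tnrc6c intron, gained: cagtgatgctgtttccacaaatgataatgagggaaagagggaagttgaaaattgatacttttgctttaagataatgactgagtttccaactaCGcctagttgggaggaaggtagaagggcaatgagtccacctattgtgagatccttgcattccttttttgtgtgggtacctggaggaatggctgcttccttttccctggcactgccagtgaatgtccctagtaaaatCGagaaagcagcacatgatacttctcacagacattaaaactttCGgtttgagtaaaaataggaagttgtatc
near Gm23416, gained: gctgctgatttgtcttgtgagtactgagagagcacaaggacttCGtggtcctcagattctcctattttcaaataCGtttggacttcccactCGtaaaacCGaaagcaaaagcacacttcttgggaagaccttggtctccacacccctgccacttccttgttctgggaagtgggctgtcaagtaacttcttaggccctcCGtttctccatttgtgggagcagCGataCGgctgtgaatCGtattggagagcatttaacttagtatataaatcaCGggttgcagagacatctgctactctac

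The Myb promoter stretch holds 17 CpG in 300 bases, the Tmem267 stretch 8 in 150, and the Tnrc6c and Gm23416 stretches 3 and 9 in 300.

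Of the 25515 regions with a WT peak, 15.0% (14.5% to 15.4%) had no peak in Ep300Δ/ΔTet2-/- cells. Most of these regions were already without a peak in at least 1 single knockout: 3204 of 3817, or 83.9% (82.7% to 85.1%), against 6.48% (6.16% to 6.82%) of the retained regions. The Ep300Δ/Δ list lacked 2643 of the lost regions (69.2%, 67.8% to 70.7%), and the Tet2-/- list lacked 2190 (57.4%, 55.8% to 59.0%). Among retained regions these lists lacked 4.85% and 2.64%.

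Broken down by both single knockouts, 1629 lost regions (42.7%) had a peak in WT only, 1014 (26.6%) kept a peak in Tet2-/- but not in Ep300Δ/Δ cells, and 561 (14.7%) kept one in Ep300Δ/Δ but not in Tet2-/- cells. The remaining 613 (16.1%, 14.9% to 17.3%) had peaks in both single knockouts and lacked one only in the Ep300Δ/ΔTet2-/- list. The last group was somewhat stronger and wider in WT cells, with a median fold enrichment of 5.97 and a median width of 438 bp against 4.46 and 306 bp for regions absent from all 3 knockout lists. Fold enrichment is the value the authors' peak caller gave each peak over the H3 library, and it ranks peaks within 1 list only. Without chromosomes X and Y, 3758 regions were lost, of which 83.9% were absent from a single knockout, and 3324 were gained, of which 64.5% were present in one.

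**Figure D1:**
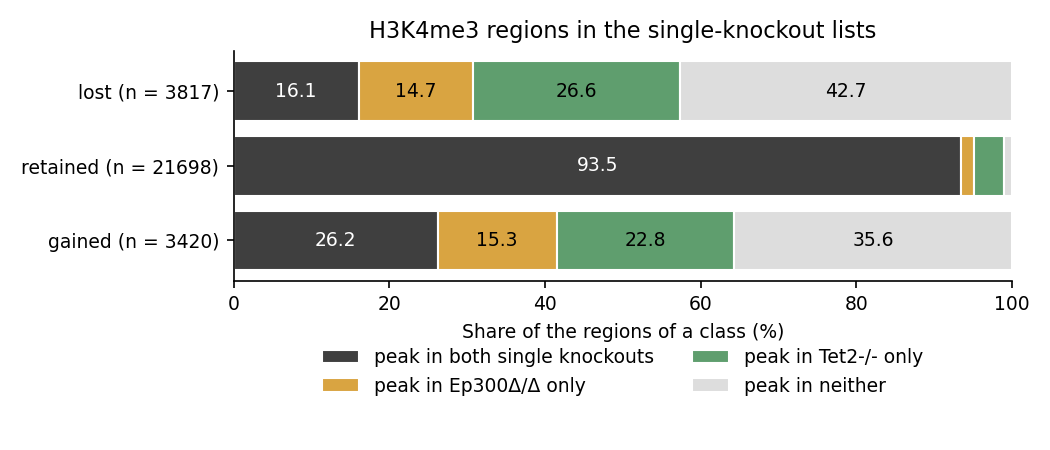
Share of the lost, retained, and gained H3K4me3 regions (rows, with their number) that had a peak in both single-knockout lists, in 1 of them, or in neither (x axis, percent). Retained regions had peaks in both single knockouts in 93.5% of cases, lost regions in 16.1%, and gained regions in 26.2%.

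Of the 25118 regions with an Ep300Δ/ΔTet2-/- peak, 13.6% (13.2% to 14.0%) had no WT peak. Of these 3420 gained regions, 2201 (64.4%, 62.7% to 66.0%) had a peak in at least 1 single knockout, 1420 (41.5%) in Ep300Δ/Δ and 1677 (49.0%) in Tet2-/- cells. Peaks in both single knockouts were found at 896 (26.2%), in Ep300Δ/Δ only at 524 (15.3%), and in Tet2-/- only at 781 (22.8%). The other 1219 (35.6%, 34.0% to 37.3%) were in neither, so that these regions had a peak in the Ep300Δ/ΔTet2-/- list alone. They were the weakest and narrowest gained regions, with a median fold of 4.03 and a median width of 247 bp, against 5.14 and 366 bp for those found in both single knockouts.

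Lost and gained regions were overwhelmingly weak peaks. When the regions with a WT peak were ranked by fold and cut into 4 equal parts, 0 of 6379 were lost in the strongest part, which allows a share of up to 0.0578%, 13 of 6379 (0.204%) in the next, 784 of 6379 (12.3%) in the third, and 3020 of 6378 (47.4%, 46.1% to 48.6%) in the weakest. Gains over the same parts of the Ep300Δ/ΔTet2-/- list numbered 2, 17, 685 (10.9%), and 2716 (43.3%, 42.0% to 44.5%). Within the weakest part, 74.8% (73.2% to 76.3%) of lost regions were absent from the Ep300Δ/Δ list against 22.4% of retained regions, and 62.4% (60.6% to 64.1%) were absent from the Tet2-/- list against 12.95% (11.8% to 14.1%). Of the gained regions of the weakest part, 36.0% were present in Ep300Δ/Δ and 43.1% in Tet2-/- cells, against 76.7% and 87.2% of retained ones. Fold still varied within a part, from 1.914 to 6.58 in the weakest part of the WT list, and retained regions had to be called in both lists, so these shares do not separate the classes from peak strength.

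**Figure D2:**
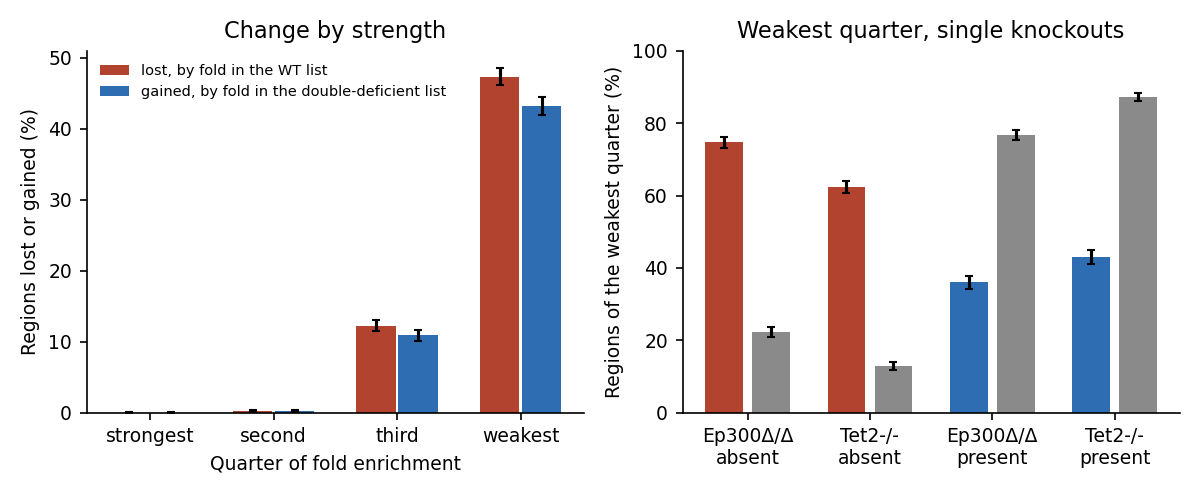
Left, share of regions lost (red, ranked by fold in the WT list) or gained (blue, ranked by fold in the Ep300Δ/ΔTet2-/- list) in each of 4 equal parts by fold enrichment. Right, regions of the weakest part that were absent from a single-knockout list (red, lost) or present in it (blue, gained), with the retained regions of that part in grey beside them. Error bars are exact 95% intervals. The share lost climbs from 0 of 6379 to 47.4%.

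The strongest lost regions were a mixed group. The highest fold belonged to a region in an intron of Ylpm1 (chr12:85003199-85003823), which had a fold of 30.2 in WT and 12.3 in Ep300Δ/Δ cells and no peak in Tet2-/- cells. A region 5229 bp from the start of Sfpq, a splicing factor gene, had a fold of 24.5 in WT, 17.7 in Ep300Δ/Δ, and 5.43 in Tet2-/- cells. The lost region at Kdm2b, which encodes a CXXC domain demethylase that binds CpG islands, lay only 226 bp from an Ep300Δ/ΔTet2-/- peak. Nlrp12, a regulator of inflammation in myeloid cells, had a WT peak of 955 bp across its start (chr7:3249164-3250118) with a fold of 21.6, a fold of 5.70 in Tet2-/-, and no peak in the others. This region lay 38837 bp from the nearest Ep300Δ/ΔTet2-/- peak. The Nlrp12 promoter also had H3K27ac peaks in WT (fold 16.3), Ep300Δ/Δ (4.76), and Tet2-/- cells (6.58), but not in Ep300Δ/ΔTet2-/- cells.

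A region 1972 bp from a start of Pecam1, the endothelial and platelet adhesion gene, had a fold of 19.3 in WT, 3.89 in Ep300Δ/Δ, and 10.1 in Tet2-/- cells (chr11:106688342-106689375). The others of the 10 strongest on autosomes had their nearest starts at Gm28694, Pla2g12a, Sox5, Gm31105, and Mphosph9. Of these 10, Sfpq, Kdm2b, Pla2g12a, Pecam1, and Gm31105 had peaks in both single knockouts, Ylpm1, Gm28694, and Sox5 lacked one in Tet2-/- cells only, and Nlrp12 lacked one in Ep300Δ/Δ cells only. The region at Mphosph9 was absent from all 3 knockout lists. It had a WT fold of 18.5 in an intron, 7083 bp from the nearest start (chr5:124317234-124318044). The next by fold of that kind were in an intron 38085 bp from the Psd3 start (15.1) and in intergenic sequence 40073 bp from the Il15 start (13.5).

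Nearly all of the strongest gained regions were shared with both single knockouts. Of the 19 gained regions in the stronger 2 parts of the Ep300Δ/ΔTet2-/- list, 18 had peaks in both single knockouts and 1, at Gm20628, lacked a peak in Ep300Δ/Δ cells. Retained regions of these 2 parts were likewise present, at 99.94% and 99.90% in Ep300Δ/Δ and at 100% and 99.98% in Tet2-/- cells. For those 18 the WT list was the only one of the 4 without a peak. By contrast, of the 13 lost regions of such strength, 6 had peaks in both single knockouts. The start shared by Tmem267 and 3110070M22Rik (chr13:119487291-119488405) had a fold of 51.2 in Ep300Δ/Δ, 30.6 in Tet2-/-, and 42.9 in Ep300Δ/ΔTet2-/- cells, with no WT peak. H3K27ac went another way there, with peaks in WT (fold 6.23) and Ep300Δ/Δ cells (5.59) and none in Tet2-/- or Ep300Δ/ΔTet2-/- cells. Pwp1, a chromatin-binding WD repeat protein gene, had H3K4me3 folds of 19.1, 19.5, and 19.4 in Ep300Δ/Δ, Tet2-/-, and Ep300Δ/ΔTet2-/- cells. Tank, an adaptor of innate immune signaling, had 7.90, 6.37, and 18.9. Ifi44, an interferon-stimulated gene, had 15.99, 11.2, and 18.1 (chr3:151749695-151750114). Adam5, a gene of the testis, had 9.99, 11.4, and 16.8. Others of the 10 strongest on autosomes were an intron of Tnrc6c, which encodes a protein of miRNA silencing, the antisense gene Gm20628 beside the histone gene Hist2h2bb, and intergenic regions whose nearest starts were those of Gm11443, Gm23416, and AC021063.1, 39109, 5006, and 41778 bp away. The strongest gained regions in neither single knockout were weaker: 1 lay 11551 bp from the Olfr713 start (9.94), and the others by the starts of Cftr (9.56) and Synj2 (8.41). At Cftr, other peaks of the single knockouts lay within 3000 bp of a start.

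Lost and gained regions were narrower and less tied to starts than retained ones. The median width was 343 bp for lost, 285 bp for gained, and 1141 bp for retained regions. A transcript start lay inside 9.96% of lost, 12.6% of gained, and 60.1% of retained regions. Within 3000 bp of a start, the promoter window used here, were 55.2% (53.6% to 56.8%) of lost, 56.1% (54.4% to 57.7%) of gained, and 80.7% (80.1% to 81.2%) of retained regions. Introns held 23.3%, 22.1%, and 7.94%, and intergenic sequence 17.9%, 18.9%, and 10.0%. Many changed regions lay beside a peak of the other list: 26.8% of lost and 24.7% of gained regions were under 500 bp from one, and 44.4% and 36.4% were under 2000 bp. Lost regions under 2000 bp from an Ep300Δ/ΔTet2-/- peak were in promoter windows in 79.1% of cases, and those at 5000 bp or more in 34.6%. Absence from Ep300Δ/Δ stood at 67.2% and 70.9% in these sets, absence from Tet2-/- at 54.2% and 59.6%, and presence in both at 18.6% and 14.3%.

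Changed regions were poor in CpG. In the 500 bp around the summit, the median ratio of observed to expected CpG was 0.301 for lost, 0.341 for gained, and 0.657 for retained regions, with 0.356 for all 21938 protein-coding genes at 1 start each. CpG-rich windows, with a ratio of at least 0.6 and at least 50% G+C, made up 10.8% (9.80% to 11.8%) of lost, 15.4% (14.2% to 16.7%) of gained, and 56.0% (55.3% to 56.6%) of retained regions. Of CpG-rich regions with a WT peak 3.27% (2.97% to 3.60%) were lost, against 26.3% (25.5% to 27.1%) of the others. Gains were 4.17% and 23.2%. Within promoter windows alone the CpG-rich share was still 15.8% of lost, 23.7% of gained, and 66.4% of retained regions. Retained regions were also stronger, with a median WT fold of 24.9 against 4.90 for lost regions. In the Ep300Δ/ΔTet2-/- list their median was 17.5 against 4.38 for gained regions. The part of strength in the CpG difference was not tested.

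**Figure D3:**
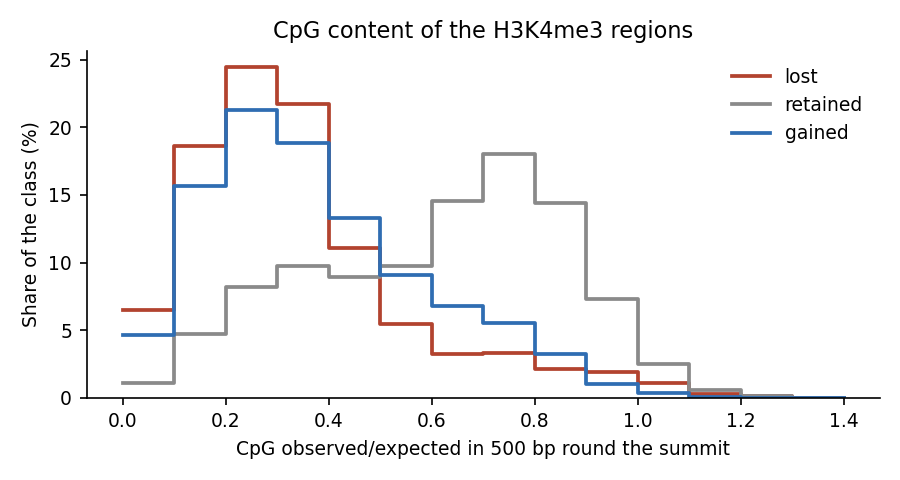
Ratio of observed to expected CpG in the 500 bp around the peak summit (x axis, bins of 0.1) against the share of each class in percent (y axis). Lost (red) and gained (blue) regions peak at low ratios, with medians of 0.301 and 0.341, and retained regions (grey) have a median of 0.657.

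Several short sequence motifs also differed in frequency between changed and retained regions. Both strands of the 150 bp on either side of the summit were searched, and a match is a description of the sequence and no binding site. The SP/KLF letters GGGCGG stood in 16.9% of lost, 17.6% of gained, and 39.6% of retained regions, and in 33.5% of windows of the same length at protein-coding starts. The ETS letters CCGGAAG stood in 3.93%, 3.60%, and 8.21%, against 8.21% at starts. The GATA and RUNX motifs, which hold no CpG, were more frequent in changed regions. The GATA letters AGATAA stood in 13.8% (12.7% to 14.9%) of lost, 12.1% (11.1% to 13.3%) of gained, and 6.44% (6.12% to 6.78%) of retained regions, against 9.85% at starts. The RUNX letters AACCACA stood in 7.47%, 8.04%, and 4.48%, against 5.17%. The CTCF letters AGGGGGCG, which can overlap GGGCGG, stood in 2.17%, 2.43%, and 4.45%. The NRF1 letters GCGCATGC, the CRE letters TGACGTCA, and the E-box letters CACGTG stood in 1.02%, 0.262%, and 6.05% of lost, 0.965%, 0.585%, and 5.56% of gained, and 1.59%, 0.710%, and 6.52% of retained regions. The intervals of lost and retained regions overlapped for the E-box, and those of gained and retained regions for CRE and the E-box. The intervals of lost and gained regions overlapped for each of the 8 motifs.

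H3K27ac calls disappeared at lost regions more often than at retained ones. Of the 3817 lost regions, 1194 overlapped an H3K27ac peak in WT cells (31.3%, 29.8% to 32.8%), 572 in Ep300Δ/Δ (15.0%), 715 in Tet2-/- (18.7%), and 338 in Ep300Δ/ΔTet2-/- cells (8.86%, 7.97% to 9.80%). Of the 1194 with WT H3K27ac, 888 (74.4%, 71.8% to 76.8%) had none in Ep300Δ/ΔTet2-/- cells, against 17.9% (17.3% to 18.6%) of the retained regions and 45.5% (40.8% to 50.3%) of the 437 gained regions with WT H3K27ac. Over the whole H3K27ac lists 48.9% of WT regions were lost. Retained regions with H3K27ac numbered 12912 in WT (59.5%) and 11377 in Ep300Δ/ΔTet2-/- cells (52.4%). Gained regions showed no matching gain of H3K27ac: 12.8% (11.7% to 13.9%) overlapped it in WT and 11.9% (10.8% to 13.03%) in Ep300Δ/ΔTet2-/- cells. The whole H3K27ac list was shorter in Ep300Δ/ΔTet2-/- cells, with 18327 peaks against 29659 in WT.

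H3K4me1 changed less at lost regions. It was present at 77.5% of lost regions in WT and still at 67.4% (65.9% to 68.9%) in Ep300Δ/ΔTet2-/- cells. Of the 2959 lost regions with WT H3K4me1, 540 (18.2%, 16.9% to 19.7%) had none in Ep300Δ/ΔTet2-/- cells, against 8.27% (7.85% to 8.70%) of retained regions. At gained regions it was present at 54.7% (53.0% to 56.4%) in WT, 61.1% in Ep300Δ/Δ, 61.8% in Tet2-/-, and 70.1% (68.6% to 71.7%) in Ep300Δ/ΔTet2-/- cells. Of the 1550 gained regions without WT H3K4me1, 666 (43.0%) had it in Ep300Δ/ΔTet2-/- cells, against 36.4% of the retained regions without it. The H3K4me1 list itself shrank from 107392 to 93465 peaks.

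**Figure D4:**
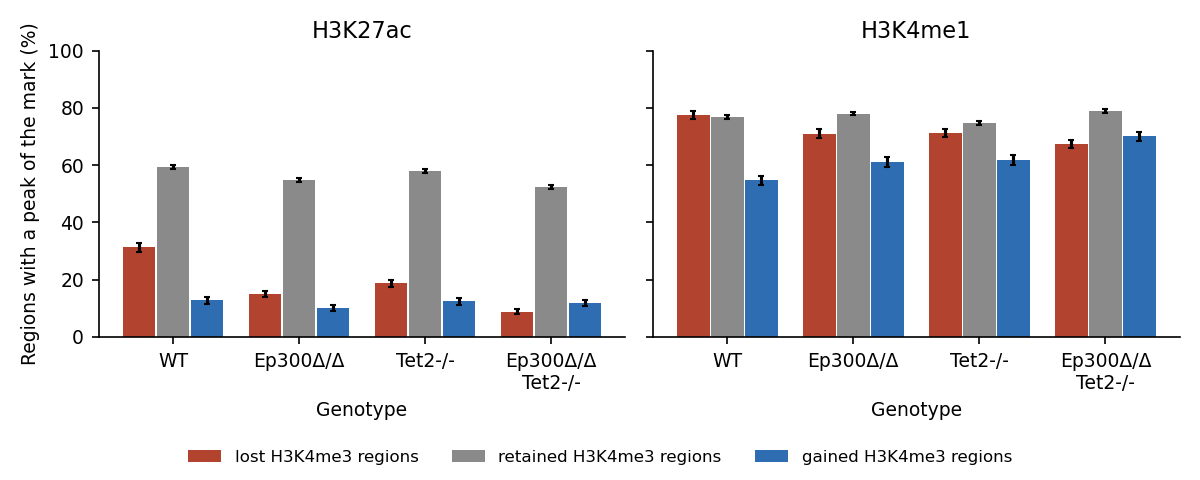
Share of the lost (red), retained (grey), and gained (blue) H3K4me3 regions that overlapped an H3K27ac peak (left) or an H3K4me1 peak (right) in each genotype (x axis), with exact 95% intervals. H3K27ac at lost regions went from 31.3% in WT to 8.86% in Ep300Δ/ΔTet2-/- cells, and H3K4me1 at gained regions from 54.7% to 70.1%.

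At the level of genes the lists changed little. Of 21938 protein-coding genes, 13578 had a WT peak and 13749 an Ep300Δ/ΔTet2-/- peak within 3000 bp of any start. Of the genes with a WT peak, 241 (1.77%) had none in Ep300Δ/ΔTet2-/- cells, and of those with an Ep300Δ/ΔTet2-/- peak, 412 (3.0%) had none in WT. This order turned around with a q cutoff on every list. At a −log10 q of 5 or more, 359 genes lost and 280 gained, and with at least 10, 416 lost and 239 gained. The order held with lists of equal size, at 287 and 363. It also held where only peaks above the median fold of their list could change, at 7 and 9. Of the 241 genes, 182 had a peak in at least 1 single knockout and 59 in neither, and of the 412, 315 had one in at least 1 single knockout and 97 in neither. For 9 of the 241 genes and 6 of the 412 the strongest peak of the window belonged to a retained region that reached the window in 1 list only. These include Zbtb32, Gm49369, Platr17, Ppp1r1b, Cnga1, and Unc5cl, 6 of the 10 genes of highest WT fold that lost every peak, and Tcam1 and Prr19, 2 of the 10 that gained a first one. Their gene windows changed state, while the regions with their strongest peaks did not.

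The genes of highest fold whose own peak was lost had varied functions. Besides Nlrp12, Mefv, which encodes the inflammasome sensor pyrin of granulocytes, had folds of 12.5 in WT, 3.12 in Ep300Δ/Δ, and 3.61 in Tet2-/- cells. Rhag, an ammonium channel of the red cell membrane, had 11.8 in WT and 7.63 in Ep300Δ/Δ cells and no peak in Tet2-/- cells. Rasip1, a vascular RAS effector, had 14.8, 10.7, and 7.10 in WT, Ep300Δ/Δ, and Tet2-/- cells, and Tmem178 had 14.4, 4.56, and 11.7. The genes of highest fold gaining a first peak were Tmem267, 3110070M22Rik, Ifi44, Adam5, Tmem45a (14.9), Fyb2 (13.5), the zinc finger gene Zfp951 (13.4), and Tekt2 (11.5), a gene of cilia. Each of these 8 had a peak in both single knockouts.

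Of the 21 gene lists, the B cell list had the highest share of genes that lost every peak. Of its 18 genes, 13 had a promoter peak in WT, 10 in Ep300Δ/Δ, 7 in Tet2-/-, and 6 in Ep300Δ/ΔTet2-/- cells. Those that lost every peak were 7 of 13 (53.8%), against 1.77% of all genes. Among them were Ebf1 and Pax5, transcription factors that commit cells to the B lineage, Il7r, the receptor for interleukin 7, Rag2, a subunit of the V(D)J recombinase, Blnk, an adaptor of B cell receptor signaling, and Igll1, part of the surrogate light chain. None gained a first peak. Of the 26 regions with a WT peak nearest to genes of this list, 18 were lost (69.2%, 48.2% to 85.7%). Of these, 12 were absent from Ep300Δ/Δ, 15 from Tet2-/-, and 10 from both, against 69.2%, 57.4%, and 42.7% of all lost regions. These were weak regions: 15 of the 26 were in the weakest part of the WT list, where 14 were lost, against 47.4% of all regions there, and 9 in the third part, where 4 were lost, against 12.3%. Strength within a part was not matched.

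At Ebf1 5 regions were lost, and 4 of them lay within 3000 bp of a start. The strongest (chr11:44618445-44618699) had a fold of 7.83 in WT and 3.53 in Ep300Δ/Δ cells and no peak in the lists that lack Tet2. The one 117 bp from an Ebf1 start, which also covers the start of Gm37695, had 7.17 in WT and no peak in the other lists. At Blnk the lost region on the start (chr19:40993486-40994299) had 8.64 in WT and 5.09 in Ep300Δ/Δ cells and no peak in Tet2-/- or Ep300Δ/ΔTet2-/- cells, although an H3K27ac peak was still called there in Ep300Δ/ΔTet2-/- cells. Rag2 had 4.36 in WT and 3.37 in Ep300Δ/Δ cells within its promoter window. Il7r (5.12) and Igll1 (3.53) had a peak in WT only. Within its promoter window Pax5 kept a peak in both single knockouts, of 8.53 in Ep300Δ/Δ and 3.38 in Tet2-/- cells against 4.11 in WT, and had none in Ep300Δ/ΔTet2-/- cells. Dntt, the terminal transferase of lymphoid progenitors, lost 2 of its regions, with folds of 4.53 and 6.47 in WT and 4.09 and 6.23 in Tet2-/- cells and no peak in Ep300Δ/Δ cells. Another region, 1517 bp from its start, was retained (8.94 in WT, 9.10 in Ep300Δ/ΔTet2-/-). Vpreb1, Cd79b, Spib, Bank1, and Fcrla also kept promoter peaks. Cd22, Cd79a, Ms4a1, Pou2af1, and Rag1 had no promoter peak in WT or Ep300Δ/ΔTet2-/- cells. Mature B cells are among those removed in preparing Lin- cells, and the number of B lineage progenitors left in each sample is not known from peak lists, so its part in these losses was not tested.

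In the T and NK cell list genes gained peaks and none lost every peak. Of its 26 genes 13 had a promoter peak in WT, 18 in Ep300Δ/Δ, 18 in Tet2-/-, and 17 in Ep300Δ/ΔTet2-/- cells. A first peak was gained by 4 genes, of 17 with an Ep300Δ/ΔTet2-/- peak (23.5%, against 3.0% of all genes): Prf1 and Gzma, of cytotoxic granules, Ncr1, an NK cell receptor, and Cd3g, of the T cell receptor complex. Their folds in Ep300Δ/ΔTet2-/- cells were 5.81, 2.98, 5.08, and 4.20. Of the single knockouts, both had peaks at Ncr1 and Cd3g, Tet2-/- only at Prf1, and Ep300Δ/Δ only at Gzma. Bcl11b, Cd28, Cd3e, Cd4, Cd5, Cd8a, Cd8b1, Klrd1, and Trat1 had no promoter peak in WT or Ep300Δ/ΔTet2-/- cells. Of these, Bcl11b and Klrd1 had one in both single knockouts. With a −log10 q of at least 5 in every list the number gaining was 2 of 14, against 2.09% of all genes. With at least 10 it was 0 of 10, against 1.85%, so this call rests on weak peaks. In the B cell list 8 of 12 (66.7%) and 4 of 8 (50%) lost every peak with the same settings. The shares of all genes losing were 2.67% and 3.18%.

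**Figure D5:**
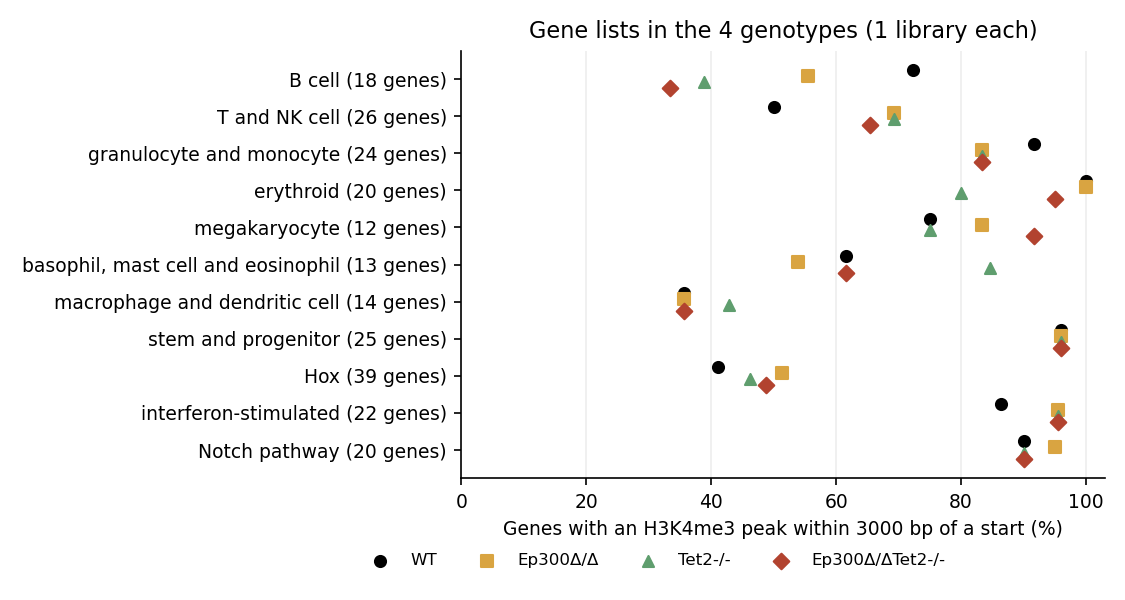
Percentage of the genes of each list (rows, with the number of genes) that had an H3K4me3 peak within 3000 bp of a start in each of the 4 genotypes, 1 library each. In the B cell list 13, 10, 7, and 6 of 18 genes had a peak in WT, Ep300Δ/Δ, Tet2-/-, and Ep300Δ/ΔTet2-/- cells.

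The other lists of cell types are read against the shares over all genes, 1.77% losing and 3.0% gaining, and over all regions, 15.0% lost and 13.6% gained. Of 24 granulocyte and monocyte genes 22 had a promoter peak in WT and 20 in each knockout, and 2 of the 22 lost every peak (9.09%). Ngp, a granule protein gene, had a WT fold of 4.88 and no other peak, and S100a9, a calcium-binding protein of neutrophils, had 4.11 in WT and 5.18 in Tet2-/- cells. By region, 18 of 63 WT regions nearest to this list were lost (28.6%, 17.9% to 41.3%, against 15.0% of all). Of these, 14 were absent from Ep300Δ/Δ and 7 from Tet2-/- cells, against 69.2% and 57.4% of all lost regions. The region over the start of Fcgr3, an Fc receptor, had a fold of 12.5 in WT and 15.4 in Tet2-/- cells and was not called in Ep300Δ/Δ or Ep300Δ/ΔTet2-/- cells, but an Ep300Δ/ΔTet2-/- peak lay 187 bp away. The gene kept promoter peaks, of 9.16 in Ep300Δ/Δ and 17.5 in Ep300Δ/ΔTet2-/- cells. Erythroid genes with a peak numbered 20, 20, 16, and 19 of 20 in WT, Ep300Δ/Δ, Tet2-/-, and Ep300Δ/ΔTet2-/- cells, and 13 of the 49 WT regions nearest to them were lost (26.5%, 14.9% to 41.1%). In the basophil, mast cell, and eosinophil list 8, 7, 11, and 8 of 13 genes had a peak, with none lost or gained between WT and Ep300Δ/ΔTet2-/-. Of its 24 WT regions, though, 11 were lost (45.8%, 25.6% to 67.2%, against 15.0% of all). Each of the 11 was absent from Ep300Δ/Δ, against 69.2% of all lost regions. In the weakest part of the WT list 9 of its 10 regions were lost, against 47.4% of all. Megakaryocyte genes numbered 9, 10, 9, and 11 of 12, with weak peaks at Gp6 (3.38) and Ppbp (2.56) gained in Ep300Δ/ΔTet2-/- cells only (18.2% of 11). The macrophage and dendritic cell list had 5, 5, 6, and 5 of 14, and 5 of its 10 WT regions were lost (50%, 18.7% to 81.3%). In the stromal and endothelial list, 7, 8, 9, and 11 of 14 genes had a peak. First peaks were gained by 4 of 11 (36.4%, against 3.0% of all genes), a higher share than in the T and NK cell list: Col1a2 (5.88) and Col1a1 (3.85), of type I collagen, Emcn (5.70), of endothelium, and Lepr (4.45), of marrow stroma. By region, 6 of 29 WT regions nearest to this list were lost (20.7%, 7.99% to 39.7%), 4 of them at Pecam1. Of 32 Ep300Δ/ΔTet2-/- regions 9 were gained (28.1%, 13.7% to 46.7%). In the weakest part of that list 7 of 18 were gained, against 43.3% of all, and in the third 2 of 9, against 10.9%. The part of stromal or endothelial cells in these calls was not tested. The 7 genes with a peak in both WT and Ep300Δ/ΔTet2-/- cells were Cdh5, Cxcl12, Kdr, Pdgfra, Pdgfrb, Pecam1, and Runx2, and Acan, Bglap, and Sp7 had none in either.

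Stem and progenitor genes kept their promoter peaks in all 4 lists (24 of 25 genes, with Ly6a the exception). Ly6a, which encodes Sca-1, a defining surface marker of hematopoietic stem and progenitor cells, had no peak in any list. Of the 113 WT regions nearest to these genes 27 were lost (23.9%, 16.4% to 32.8%, against 15.0% of all), and 22 of 108 were gained (20.4%, 13.2% to 29.2%, against 13.6%). By part of the WT list the losses were near those of all regions, with 24 of 49 in the weakest part, against 47.4%, and 3 of 28 in the third, against 12.3%. Lmo2, a cofactor of GATA and TAL1 complexes, had 6 lost regions beside 3 retained and 1 gained, more than any other gene except Foxp1 and Pde4d with the same number. None of the Lmo2 losses lay within 3000 bp of a start. Regions whose nearest protein-coding start was that of Meis1, a cofactor of HOX proteins, included 6 gained and 3 lost ones beside 9 retained. Only 2 of the gained regions lay by that start, at 68 and 276 bp, and the other changed regions were 62652 to 404626 bp away. Parp8, Zbtb20, and Zfp608 also had 6 gained regions each. These 7 genes were picked from the data for their number of changed regions.

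At Myb, the progenitor transcription factor gene, 2 lost regions lay inside the gene, where the antisense gene Gm26577 starts. The stronger (chr10:21146185-21146547) had a fold of 12.97 in WT and 5.00 in Tet2-/- cells, and the other (chr10:21144975-21145620) had 6.08 and 6.60. Neither had a peak in Ep300Δ/Δ or Ep300Δ/ΔTet2-/- cells. The stronger, whose sequence is given above, overlapped an H3K27ac peak in WT and none in Ep300Δ/ΔTet2-/- cells. The Myb promoter region was retained, at 52.0 in WT, 50.7 in Ep300Δ/Δ, 48.0 in Tet2-/-, and 35.0 in Ep300Δ/ΔTet2-/- cells. Notch1 kept its promoter peak and gained a weak intronic one (chr2:26493272-26493588, fold 3.11), which both single knockouts also had. Ep300 and Tet2 kept promoter peaks in all 4 lists. A peak at the start does not check a deletion elsewhere in the gene.

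Hox genes with a promoter peak numbered 16, 20, 18, and 19 of 39 in WT, Ep300Δ/Δ, Tet2-/-, and Ep300Δ/ΔTet2-/- cells. Hoxa13 lost its peak, which had folds of 10.0, 4.99, and 6.42 in WT, Ep300Δ/Δ, and Tet2-/- cells. Hoxb6, Hoxa5, Hoxc4, and Hoxb8 gained a first peak, of 6.47, 4.53, 3.12, and 3.10. Lost were thus 6.25% of 16 and gained 21.1% of 19, against 1.77% and 3.0% of all genes. By part of the Ep300Δ/ΔTet2-/- list the gains were near those of all regions. Of the regions nearest to Hox genes, 8 of 16 in the weakest part were gained, against 43.3% of all. In the third part 1 of 8 was gained, against 10.9%. In the Hoxb cluster, gained regions lay at Hoxb8 (chr11:96284172-96284438, in no other list), Hoxb6 (chr11:96292877-96293631, also in Tet2-/-, with another Ep300Δ/Δ peak in the promoter window), and Hoxb2 (chr11:96352585-96353219, also in both single knockouts), and none was lost. Regions at Hoxb7, Hoxb5, Hoxb4, and Hoxb3 were retained, and Hoxb9, Hoxb13, and Hoxb1 had no promoter peak in WT or Ep300Δ/ΔTet2-/- cells. Developmental regulators had 66, 80, 71, and 68 of 138 genes with a peak. Between WT and Ep300Δ/ΔTet2-/- 7 were lost (10.6%) and 9 gained (13.2%), against 1.77% and 3.0% of all genes. In the weakest part of the WT list 21 of 77 of their regions were lost, against 47.4% of all. In that of the Ep300Δ/ΔTet2-/- list 39 of 86 were gained, against 43.3%.

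Interferon-stimulated genes had 19, 21, 21, and 21 of 22 with a peak, and Ifi44 and Ifit3 were the genes gained (9.52% of 21, against 3.0% of all genes). WT mice had received poly(I:C), an inducer of interferon, as the knockouts had. In the Notch pathway Jag2 (7.26 in WT) was lost and Heyl (4.14 in Ep300Δ/ΔTet2-/-) was gained, each 5.56% of the 18 genes with a peak in that list, against 1.77% and 3.0% of all genes. Cxcl1 was the one gene to gain a peak in the inflammatory list (5.26% of 19). All 17 enzymes and subunits of H3K4 methylation, 10 histone acetylation genes, and 19 cell cycle genes kept promoter peaks in all 4 lists, and 9 of 10 DNA methylation genes and 78 of 82 ribosomal protein genes had one in each list. KRAB-type zinc finger genes lost 1 of 334 (0.299%) and gained 4 of 337 (1.19%), both below the shares over all genes. Olfactory and vomeronasal receptors, 1418 genes that blood cells do not normally use, had peaks at 6 in WT and 7 in Ep300Δ/ΔTet2-/- cells, with 1 lost (16.7%) and 2 gained (28.6%), against 1.77% and 3.0% of all genes.

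Retained regions were slightly narrower in Ep300Δ/ΔTet2-/- cells. Peaks covered 27.7 Mb of them in WT and 26.3 Mb in Ep300Δ/ΔTet2-/- cells, with a median ratio of 0.973 per region. The covered length was smaller in Ep300Δ/ΔTet2-/- cells at 12820 of 21698 regions (59.1%). Losses per chromosome ranged from 12.99% to 17.4% on autosomes, with 8.02% (6.16% to 10.2%) on X. Gains on X were 12.4%. The strongest lost regions on X lay near Bclaf3 (11.2), Gm9051 (10.1), and Pcyt1b (8.87), and the strongest gained ones at Gm6938 (17.6) and Dlg3 (12.2) and 12741 bp from Gm14619 (9.94). The 6 Y regions were all retained.

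By the same rule, 3828 H3K4me3 regions were lost and 2644 gained from WT to Ep300Δ/Δ cells, and 2838 were lost and 3569 gained from WT to Tet2-/- cells. These comparisons share the WT list with the one described here, so their counts are not independent of it. From Tet2-/- to Ep300Δ/ΔTet2-/- cells 3564 regions were lost and 2434 gained. From Ep300Δ/Δ to Ep300Δ/ΔTet2-/- cells 2448 were lost and 3238 gained. Between WT and Ep300Δ/ΔTet2-/- cells the share lost was 48.9% for H3K27ac and 35.8% for H3K4me1, against 15.0% for H3K4me3, with 5.91 regions lost per region gained for H3K27ac and 1.12 for H3K4me3.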

How the data were processed

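H3K4me3, H3K27ac, and H3K4me1 ChIP-Seq peak lists of 4 genotypes were used, 1 library each. The authors used Cutadapt 1.15 for trimming and BWA 0.7.13 for alignment to mm10, marked duplicates with Picard, kept reads of mapping quality above 30, and called peaks with MACS2 2.1.1.20160309 on pseudoreplicates against the H3 library, leaving out blacklisted regions. The labels call the reads single-end and the methods paired-end. The deposited lists give a fold enrichment ratio, a −log10 p-value and −log10 q-value, and a score per peak. The lists hold 36, 274, 90, and 371 H3K4me3 peaks with q above the stated 0.05 in WT, Ep300Δ/Δ, Tet2-/-, and Ep300Δ/ΔTet2-/- cells.

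WT and Ep300Δ/ΔTet2-/- peaks were merged where they overlapped by 1 bp. Starts were taken from GENCODE M21, sequence from GRCm38.p6, and intervals from scipy 1.17.1, with pandas 2.3.3, pysam 0.24.0, and matplotlib 3.10.9. Interval code was tested on simulated data. Named were the 10 autosomal changed regions of each class with the highest fold in their own list, the 3 strongest lost and the 3 strongest gained regions with peaks in both single knockouts and in neither, the 3 strongest of each class on X, the 10 genes of highest fold that lost every peak or gained a first one, up to 4 changed genes per list (more for B cells, where 1 gene is counted but not reported by name here), and the genes the study centres on. Genes whose strongest peak lay in a retained region are named separately. Members and the 21 gene lists were chosen with earlier results of these data known. H3 and H3K27me3 samples were not used here.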

Additional observations from a re-analysis of the deposited data

Results flagged for a closer look

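In 2 gene lists, the number of genes with a promoter H3K4me3 peak moved in opposite directions after Ep300 deletion on the 2 Tet2 backgrounds. In the T and NK cell list it went from 13 in WT to 18 in Ep300Δ/Δ cells, a change of 5, and from 18 in Tet2-/- to 17 in Ep300Δ/ΔTet2-/- cells, a change of -1. The changes differed by -6. In the developmental regulator list it went from 66 to 80, a change of 14, and from 71 to 68, a change of -3. These changes differed by -17. Each number rests on 1 library per genotype, and the difference was not tested.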

How the results depend on the processing

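No paired analysis was possible because each genotype has 1 library, all numbered as replicate 1, so the groups share fewer than 2 replicate numbers, and no replicate could be left out. Of 65 alternative values, 42 stayed near the reported one and 23 moved, where a count moved when it changed by over 1.5 times and a share when it left the 95% interval of the reported share. Counting peaks within 500 bp as overlapping left 2451 regions lost, and 66.0% of gained regions were then present in a single knockout. With 2000 bp, 1917 were lost and 2021 gained, of which 66.7% were present in a single knockout. When a −log10 q of 5 or more was required, 1708 were gained (70.6% present). When 10 or more was required, 1018 were gained (71.6% present), 80.9% of lost regions were absent from a single knockout, 416 genes lost every promoter peak, and 239 gained a first one. With lists of equal size these shares were 80.4% of lost and 67.5% of gained regions. Where only peaks above the median fold of their list could change, 15 regions were lost (53.3% absent from a single knockout), 25 were gained (100% present), 14056 were retained, 7 genes lost every peak, and 9 gained a first one. Merging all 4 lists, which was applied to the single-knockout shares only, gave 85.6% and 61.6%. A minimum overlap of a set share of the peak was not applied to genes. Keeping only peaks with q at most 0.05 was chosen after seeing the data, and gave 258 genes losing and 400 gaining. The causes were not tested. Weak peaks, in the weaker 2 parts of their list by fold, make up most of the changed regions, and the depth of the libraries is unknown.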
